A study of Mus musculus with 18 samples.

Results

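The proteasome is the protease that degrades ubiquitin-tagged proteins in the cytosol and nucleus. Its 20S core is a barrel of alpha and beta rings with the cutting sites inside, and its 19S cap holds the ubiquitin receptors, a deubiquitinase and a ring of ATPases that unfolds the substrate and threads it into the core. In macrophages and other immune cells, interferon-induced catalytic subunits can replace the constitutive ones to give the immunoproteasome, which cuts peptides for presentation on MHC class I.

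Proteasome genes were followed in mouse bone marrow-derived macrophages, grown from marrow with the growth factor M-CSF (30 ng/ml), that spent 48 hours in medium with 10% mouse plasma. The members are the rows of the array table whose gene symbol begins with Psma, Psmb, Psmc, Psmd or Psme and a digit, which gave 45 of 24705 named rows. They comprise 7 alpha and 5 constitutive beta genes of the 20S core, the 3 immunoproteasome genes Psmb8, Psmb9 and Psmb10, 6 ATPase and 11 non-ATPase genes of the 19S cap, 3 genes of 19S assembly chaperones, 4 genes of activators, the tissue-restricted core genes Psma8 (testis) and Psmb11 (thymus), and 4 other symbols that the prefix also matches. Psmb3 and Psmb5 are not analysed here, since none of the named rows carried those symbols. All 45 rows were tested without a filter on low values, and 2 of them, Psma5 and Psmb11, had means under the 40th percentile of all rows.

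The plasma came from C57BL/6J mice after 8 weeks of Western diet: wild-type mice (WT, 4 arrays), mice with a knockout of ApoE, the lipoprotein ligand apolipoprotein E (ApoE, 5 arrays), and mice with knockouts of ApoE and stabilin-1 (AS1, 3 arrays) or ApoE and stabilin-2 (AS2, 6 arrays), both scavenger receptors. The knockouts are those of the plasma donors, and the genotype of the macrophages themselves is not given in the labels. RNA was taken on day 6 of culture. The labels do not say whether arrays of a group had separate cultures or plasma pools, so the p-values speak for the spread of these arrays alone, and that spread may be technical.

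The values are log2 expression from RMA, with an array median of 4.37 on every array. The macrophage genes Csf1r, Cd68 and Adgre1 were high in all groups, with group means of at least 12.08. The summed level of 13 neutrophil and precursor markers differed between groups (log2 of the sum 12.62 to 12.99 with WT, 12.58 to 13.74 with ApoE, 14.29 to 14.57 with AS1 and 11.66 to 12.46 with AS2 plasma), while the T cell markers Cd3d, Cd3e, Cd3g and Cd8a lay below the array median on every array. Across arrays of a group, the lowest mean correlation was that of ApoE replicate 2 (r = 0.9912 over all genes). Among arrays of other groups, ApoE replicate 5 was nearest to AS1 replicate 3 (r = 0.9935), and its mean correlation with its own group was 0.9942. ApoE replicate 1 held 24162 distinct values, against 7087 on each other array, although its sorted values differed from theirs by at most 0.0019. Fewer cells of a type and less RNA per cell cannot be told apart in such bulk samples.

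The promoters of Psmd6, Psmd12 and Psmb8 are shown as examples from both sides of the results. Psmd6 had the largest called fall in AS1 against ApoE plasma, Psmd12 is a 19S gene that rose with ApoE plasma, and Psmb8 was chosen, after the motif search, as the 1 member with an interferon-gamma activated site. Psmb9 had larger changes than Psmb8 in ApoE against WT and in AS1 against ApoE, and no such site in its window. Each is the 250 bases before the RefSeq transcription start in GRCm38.p6, read 5′ to 3′ along the gene's strand. Capitals mark matches to 1 of 4 motifs searched on both strands, the antioxidant response element TGANNNNGC, CCAAT, the interferon-stimulated response element (GAAA, 2 bases of any kind, GAAA) and the interferon-gamma activated site TTCNNNGAA.
Psmd6, chr14:14120946-14121195, minus strand: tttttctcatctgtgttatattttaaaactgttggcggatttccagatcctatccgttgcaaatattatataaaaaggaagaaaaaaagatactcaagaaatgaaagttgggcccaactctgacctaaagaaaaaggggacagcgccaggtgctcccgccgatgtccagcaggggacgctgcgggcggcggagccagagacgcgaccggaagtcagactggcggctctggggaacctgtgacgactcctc
Psmd12, chr11:107479278-107479527, plus strand: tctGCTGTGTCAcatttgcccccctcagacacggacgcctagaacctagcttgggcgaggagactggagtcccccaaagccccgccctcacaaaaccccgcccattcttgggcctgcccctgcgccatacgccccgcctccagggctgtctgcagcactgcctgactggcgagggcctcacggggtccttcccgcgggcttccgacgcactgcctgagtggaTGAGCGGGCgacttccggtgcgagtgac
Psmb8, chr17:34197945-34198194, plus strand: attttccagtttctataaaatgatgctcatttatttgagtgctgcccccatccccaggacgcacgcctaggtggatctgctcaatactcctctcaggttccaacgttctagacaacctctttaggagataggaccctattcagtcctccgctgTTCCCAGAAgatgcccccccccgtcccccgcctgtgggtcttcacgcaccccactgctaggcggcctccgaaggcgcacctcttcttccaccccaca
The Psmd6 window held none of these letters. Among the 19S genes called higher with ApoE plasma, only Psmd12 held the antioxidant response element. Psmc4, Psmd2, Psmd6, Psmd8 and Psmd14 held none, and Psmd7 had no promoter among those searched. Psmd12 held 2 matches to the antioxidant response element, TGAGCGGGC from -28 to -20 and, on the opposite strand, GCTGTGTCA from -247 to -239, counted from the transcription start. Psmb8 held 1 interferon-gamma activated site, TTCCCAGAA from -97 to -89. In RefSeq's promoter table, 36 of the 45 members had 40 promoters. The antioxidant response element was in 37.5% of them, against 35.2% of all 32851 promoters, CCAAT in 37.5% against 33.8%, the interferon-stimulated response element in 5.0% (Psmd4 and Psmd9) against 2.98% and the interferon-gamma activated site in 2.5% against 7.02%. A match is a description of the letters and not of binding.

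Across the 4 plasma groups, 27 of 45 members differed (limma F test, Benjamini-Hochberg adjusted p under 0.05), where 30.2% of all 24705 rows did. In ApoE against WT and in AS1 against ApoE plasma, the called genes of 19S subunits and the called immunoproteasome genes had opposite signs. The mean with AS1 plasma was the lowest of the 4 groups in 15 of 17 genes of 19S subunits and in 9 of 12 constitutive 20S genes, whereas the mean with ApoE plasma was the lowest in all 3 immunoproteasome genes. These counts are a description, called or not. The share of all rows with the lowest mean in each group was not computed, and AS1 had the fewest arrays. Called members are those with an adjusted p under 0.05 in the limma model over all named rows, and differences are given in log2 units with the standard error (SE). The median over all rows was within 0.007 of 0 in each comparison.

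ApoE was compared with WT plasma to ask how plasma of donors without apolipoprotein E differs in effect from that of wild-type donors on the same Western diet. With ApoE plasma, 13 of 45 members were called, 8 higher and 5 lower, where 16.9% of all rows were called, 8.54% higher and 8.36% lower. Of 17 genes of 19S subunits, 7 rose and 0 fell, and their median difference was 0.191. Of 12 constitutive 20S genes, 1 rose (Psmb6) and 1 fell (Psma6), and of the 3 immunoproteasome genes 2 fell.

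Psmd8, a lid subunit gene of the 19S cap, was 9.52, 9.49, 9.77 and 9.62 with WT plasma and 10.00, 9.90, 10.24, 9.99 and 9.99 with ApoE plasma. Every ApoE array was above every WT array, by a mean of 0.42 ± 0.08 (SE), a 1.34-fold difference (limma adjusted p = 0.000987). Psmd14, which encodes the deubiquitinase Rpn11, was 8.87, 8.71, 8.78 and 8.82 with WT and 9.19, 9.43, 9.14, 9.29 and 9.04 with ApoE plasma. Again the groups did not overlap, and the difference was 0.42 (adjusted p = 0.00105). Psmc4, an ATPase gene, rose by 0.39 (adjusted p = 0.000186), from 8.69, 8.56, 8.52 and 8.63 to 9.03, 9.14, 9.02, 8.91 and 8.84. Psmd2, a scaffold subunit of the base, was 9.41, 9.34, 9.32 and 9.38 with WT and 9.63, 9.86, 9.74, 9.89 and 9.46 with ApoE plasma, 0.35 higher (adjusted p = 0.000787). Its lowest ApoE value, that of replicate 5, was still above all WT values. Psmd6, Psmd12 and Psmd7, 3 further lid genes, rose by 0.28, 0.23 and 0.19.

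Psmb6, the constitutive caspase-like catalytic subunit, rose with ApoE plasma from 9.75, 9.84, 9.96 and 9.90 to 10.22, 10.23, 10.42, 10.24 and 9.98. The difference was 0.35 ± 0.10 (SE, limma adjusted p = 0.0188), without overlap. Without WT replicate 1 or ApoE replicate 3 this call was lost (0.32 and 0.30, adjusted p = 0.0669 and 0.0506). Psma6, an alpha ring gene, went the other way, from 9.21, 8.86, 9.04 and 9.01 to 8.72, 8.67, 8.64, 8.79 and 8.74, a difference of -0.32 ± 0.07 (SE, adjusted p = 0.00235).

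Psmb9, the inducible subunit that takes the place of Psmb6, was 6.85, 6.71, 7.04 and 6.70 with WT and 6.25, 6.29, 6.30, 6.29 and 6.61 with ApoE plasma. All ApoE values were below all WT values, and the mean fell by 0.48 ± 0.09 (SE), 1.39-fold (limma adjusted p = 0.000665). The highest ApoE value, that of replicate 5, lay apart from the other 4. Psmb8, the inducible chymotrypsin-like subunit, was 8.85, 8.58, 8.84 and 8.70 with WT and 8.31, 8.33, 8.54, 8.68 and 8.68 with ApoE plasma. The groups overlapped, and the difference of -0.24 ± 0.08 (SE) was barely past the threshold (adjusted p = 0.0452). It was lost in 15 of 18 fits that left out 1 array, with adjusted p up to 0.143, and kept only without WT replicate 2 or ApoE replicate 4 or 5. Psmb10, the inducible trypsin-like subunit, was 8.27, 8.12, 8.35 and 8.30 with WT and 7.98, 8.29, 8.07, 8.16 and 8.33 with ApoE plasma, and its difference of -0.09 did not pass (adjusted p = 0.575). Psme1, the alpha subunit of the interferon-inducible activator of the core, differed by -0.20 ± 0.07 (SE, adjusted p = 0.0433), from 10.04, 9.83, 10.08 and 10.06 to 9.74, 9.82, 9.82, 9.73 and 9.89. That call was lost in 12 of 18 fits without 1 array, with adjusted p up to 0.131, and kept only without WT replicate 2, ApoE replicate 5, AS1 replicate 2 or 3, or AS2 replicate 3 or 4. Psme2, the beta subunit of the same activator, differed by -0.27 (adjusted p = 0.111), and the nuclear activator genes Psme3 and Psme4 by 0.13 and 0.16 (adjusted p = 0.359 and 0.247).

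Macrophage markers moved with this comparison too: 6 of 8 were called lower and 1 higher with ApoE plasma, none was below the array median on every array, and their summed level was 14.36 to 14.5 against 14.69 to 14.71 with WT plasma. All 5 megakaryocyte markers were called too, 4 higher and 1 lower, with summed levels of 10.12 to 11.04 with ApoE and 10.34 to 10.51 with WT plasma. Of 13 neutrophil markers 2 were called higher and 0 lower, near the share of all rows called (16.9%). Of 8 dendritic cell markers 3 were called higher and 1 lower. The dendritic cell markers Itgae and Zbtb46 lay below the array median on every array. The part of these cells in the rise of 19S genes, the fall of Psmb9 and the other changes was not tested.

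**Figure D1:**
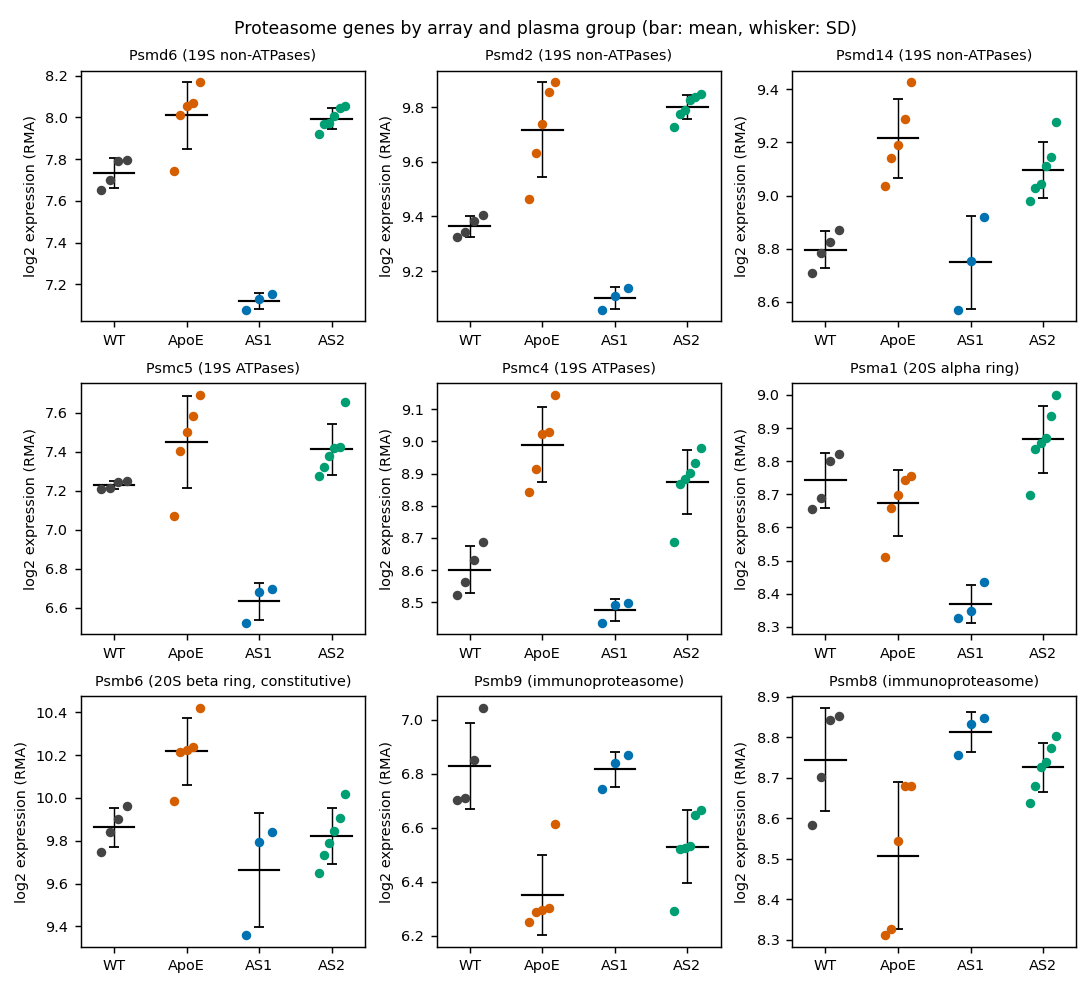
Log2 expression (y axis, RMA) of 9 proteasome genes on each array (points) by plasma group (x axis), with the group mean (bar) and SD (whisker). The 3 AS1 arrays lie below all others in Psmd6, from 7.08 to 7.15, and 4 of 5 ApoE arrays lie at 6.25 to 6.30 in Psmb9, where the lowest WT array is at 6.70.

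The comparison of AS1 with ApoE plasma asks what loss of stabilin-1 in the donor adds to the effect of ApoE knockout plasma. Here 23 of 45 members were called, 3 higher and 20 lower, where 16.5% of all rows were called, 7.74% higher and 8.8% lower. All 17 genes of 19S subunits had a negative difference, 13 were called lower, and in 13 every AS1 array lay below every ApoE array, where 18.2% of all rows had groups that did not overlap in either direction. Their median difference was -0.416. Of 12 constitutive 20S genes 3 were called lower and 0 higher (median -0.128), and of the 3 immunoproteasome genes 2 were called higher and 0 lower (median 0.305). This comparison shares the ApoE arrays with ApoE against WT, so the opposite signs in both are not independent of each other.

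Psmd6, a lid gene of the 19S cap, was 7.15, 7.13 and 7.08 with AS1 and 8.05, 8.17, 8.01, 8.07 and 7.74 with ApoE plasma. The groups were far apart, and the difference of -0.89 ± 0.07 (SE) was 1.85-fold (limma adjusted p = 5.81e-07). Psmc5, an ATPase gene, was 6.52, 6.69 and 6.68 with AS1 and 7.40, 7.69, 7.50, 7.58 and 7.07 with ApoE plasma, -0.82 ± 0.11 (SE) or 1.76-fold lower (adjusted p = 3.78e-05). The lowest ApoE value was again that of replicate 5, and it stayed above the AS1 arrays. Psmd2 was 9.06, 9.11 and 9.14 with AS1 plasma, against at least 9.46 with ApoE plasma, a difference of -0.62 ± 0.07 (SE, adjusted p = 1.41e-05). Psmc4 was 8.44, 8.49 and 8.50 with AS1 plasma, -0.51 from ApoE (adjusted p = 4.34e-05). Psmd14 was 8.75, 8.92 and 8.57, with a difference of -0.47 (adjusted p = 0.000982), and Psmd7, which pairs with the Psmd14 product, was 8.74, 8.84 and 8.96, also with a difference of -0.47 (adjusted p = 9.3e-06).

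In the rest of the 19S group, Psmd1, Psmc2, Psmd8, Psmd11, Psmd12, Psmd4 and Psmc3 were called lower, with differences from -0.43 (Psmd1, a base scaffold gene) to -0.18 (Psmc3, an ATPase gene). Psmc3 lost its call without AS1 replicate 1, AS1 replicate 3 or ApoE replicate 3 (-0.15, -0.18 and -0.17, adjusted p = 0.136, 0.0747 and 0.054). Psmc1, Psmc6, Psmd3 and Psmd13 did not pass the test, with -0.25, -0.29, -0.19 and -0.07. Of the 19S assembly chaperone genes, Psmd10 (gankyrin) and Psmd5 were lower by -0.55 and -0.30 (adjusted p = 0.00068 and 0.00296), and Psmd9 differed by 0.01 (adjusted p = 0.982).

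In the core, Psmb6 was 9.84, 9.36 and 9.79 with AS1 plasma, against 9.98 to 10.42 with ApoE plasma. All AS1 values were below all ApoE values, and the mean differed by -0.55 ± 0.11 (SE, limma adjusted p = 0.00146). Psma1, an alpha ring gene, was 8.33, 8.35 and 8.44, against 8.74, 8.76, 8.66, 8.70 and 8.51, with a difference of -0.30 (adjusted p = 0.00353). Psmb4, a structural beta gene, differed by -0.26 (adjusted p = 0.0193), and by -0.23 (adjusted p = 0.0949) without AS1 replicate 2. Psmb7, the constitutive trypsin-like subunit, was 9.31, 9.35 and 9.30 with AS1 and 9.38, 9.13, 9.60, 9.72 and 9.62 with ApoE plasma, and its difference of -0.17 did not pass (adjusted p = 0.303). Psma3 had the highest difference of the alpha ring, 0.27, also not past the threshold (adjusted p = 0.301), and Psma6 had a mean of 8.71 in both groups.

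Psmb9 was 6.87, 6.74 and 6.84 with AS1 plasma, above all ApoE arrays and 0.47 ± 0.10 (SE) or 1.38-fold higher in the mean (limma adjusted p = 0.00191). Psmb8 was 8.85, 8.83 and 8.76, also above all ApoE arrays, by 0.30 (adjusted p = 0.0183). Without AS1 replicate 1 or 2 the Psmb8 call was lost (0.29 in both, adjusted p = 0.0778 and 0.0621). Psmb10 was 8.25, 8.47 and 8.30 and differed by 0.17, short of the threshold (adjusted p = 0.245). Among the activators, Psme1 was 10.11, 9.95 and 10.17, with 0.28 ± 0.07 (SE, adjusted p = 0.0115), and Psme4 differed by -0.31 (adjusted p = 0.0276), while Psme2 (0.25, adjusted p = 0.198) and Psme3 (-0.24, adjusted p = 0.0751) did not pass. Psme1 lost its call without AS1 replicate 1 or 3 (0.26 and 0.23, adjusted p = 0.0572 and 0.0762). Psme4 lost it without AS1 replicate 1 or 3 or ApoE replicate 1 or 2 (from -0.28 to -0.25, adjusted p from 0.0576 to 0.133).

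Markers of neutrophils and their precursors moved with this comparison: all 13 were called higher with AS1 than with ApoE plasma. None of the 13 was below the array median on every array, but Ly6g had group means of at most 4.296, under that median. The summed level was 14.29 to 14.57 in the AS1 arrays, above the ApoE range of 12.58 to 13.74. Of the mast cell, basophil and eosinophil markers 5 of 9 were also called higher, but Fcer1a, Gata2, Il5ra and Ms4a2 lay below the array median on every array. Of 5 megakaryocyte markers 3 were called higher, with a summed level of 11.09 to 11.34 against 10.12 to 11.04. Macrophage markers rose as well, 6 of 8 called higher and 0 lower, with summed levels of 14.6 to 14.77 against 14.36 to 14.5. The part of these cells in the fall of 19S genes and the rise of Psmb9 and Psmb8 was not tested.

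**Figure D2:**
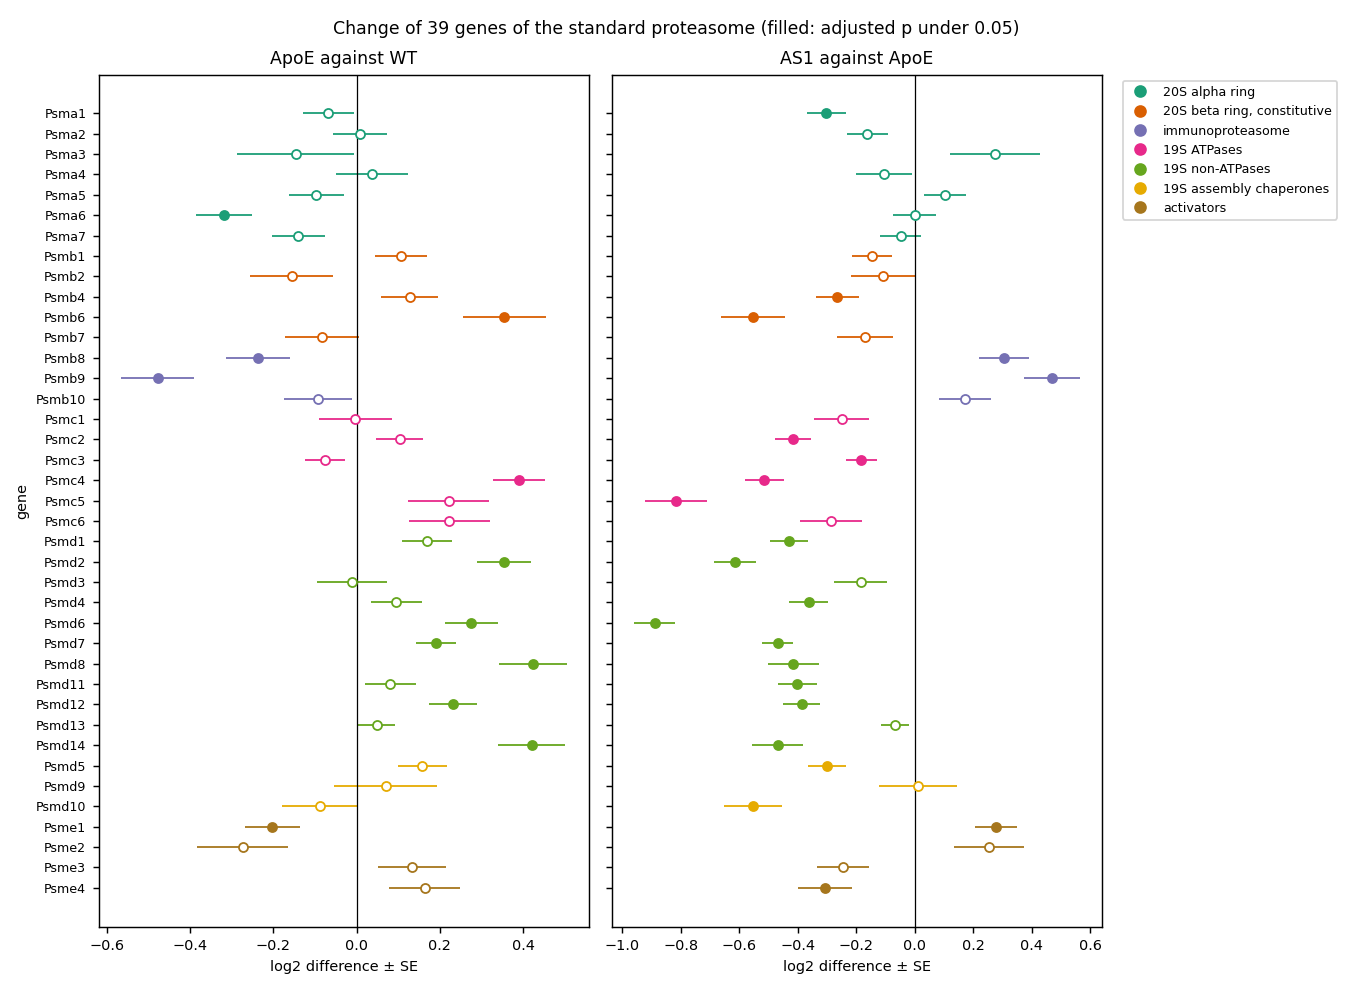
Difference in log2 expression (x axis, with SE) for 39 genes of the standard proteasome (y axis), ApoE against WT on the left and AS1 against ApoE on the right, coloured by functional group and filled where the adjusted p was under 0.05. The 17 genes of 19S subunits all lie left of 0 in the right panel, and Psmb9 and Psmb8 lie on the other side of 0 from most of the 19S genes in both panels.

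The comparison of AS2 with ApoE plasma asks the same of stabilin-2. Here 7 of 45 members were called, 6 higher and 1 lower, which is the share of all rows that were called, 15.6% (7.59% higher and 8.02% lower). Of 17 genes of 19S subunits 1 rose, Psmc3 (0.16, limma adjusted p = 0.0187), and the median difference was -0.0156. The Psmc3 call was lost without ApoE replicate 2 or 4 (0.14 in both, adjusted p = 0.0535 and 0.0569). Psmd6 had a lowest, median and highest value of 7.92, 7.99 and 8.05 with AS2 plasma, inside the ApoE range of 7.74 to 8.17, and differed by -0.02 ± 0.06 (SE).

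Psmb6 fell with AS2 plasma, to a lowest, median and highest value of 9.65, 9.82 and 10.02 against 9.98 to 10.42 with ApoE plasma. The difference was -0.39 ± 0.09 (SE, limma adjusted p = 0.0045), and the groups overlapped by 1 array on each side. Psmb7 was 9.62, 9.75 and 9.86 and differed by 0.24 (adjusted p = 0.0481), a call lost in 14 of 18 fits without 1 array (adjusted p up to 0.123) and kept only without ApoE replicate 3, 4 or 5 or AS2 replicate 3. Psmb8 was 8.64, 8.73 and 8.80 and differed by 0.22 (adjusted p = 0.043). That call was lost in 11 of 18 such fits (adjusted p up to 0.134) and kept only without WT replicate 1, 2 or 3, ApoE replicate 4 or 5, AS1 replicate 3 or AS2 replicate 6. Psmb9 was 6.29, 6.53 and 6.66 and differed by 0.18 (adjusted p = 0.159), and Psmb10 was 8.06, 8.34 and 8.42 and differed by 0.14 (adjusted p = 0.264). Psma1 differed by 0.19 (adjusted p = 0.0223) and lost its call without AS2 replicate 2, AS2 replicate 4 or ApoE replicate 5 (0.17, 0.18 and 0.15, adjusted p = 0.0557, 0.0524 and 0.0688). With ApoE replicates 2 and 5 both left out, 3 members were called in place of 7. None of the 4 activator genes was called, with differences of 0.15 (Psme1), 0.03 (Psme2), -0.004 (Psme3) and -0.21 (Psme4).

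Markers of other cells moved with this comparison as well. All 5 megakaryocyte markers were called lower with AS2 plasma, with summed levels of 8.922 to 9.321 against 10.12 to 11.04, and 7 of 13 neutrophil markers were called lower and 0 higher, with summed levels of 11.66 to 12.46 against 12.58 to 13.74. Of 8 macrophage markers 3 were called higher and 2 lower. Their part in the fall of Psmb6 and the other changes was not tested.

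Psmb9 and Psmb6 encode subunits that compete for the same place in the core, so their difference within each array was tested by an exact two-sided permutation test over arrays, 6 such tests with Psmb10 and Psmb7 included. Psmb9 minus Psmb6 was lower with ApoE than with WT plasma by a change of -0.833 (exact permutation p = 0.01587, the smallest the design allows, adjusted p = 0.0476). It was 0.576 higher with AS2 than with ApoE plasma (exact permutation p = 0.00866, adjusted p = 0.0476) and 1.02 higher with AS1 than with ApoE plasma (exact permutation p = 0.0357, the smallest the design allows, adjusted p = 0.0714). Psmb10 minus Psmb7 changed by -0.00962, -0.101 and 0.343 in ApoE against WT, AS2 against ApoE and AS1 against ApoE (exact permutation, adjusted p = 0.937, 0.634 and 0.214). Both calls were lost in each fit that left out 1 WT or 1 ApoE array (adjusted p from 0.0519 to 0.0857). Fewer arrays raise the smallest p that this test can give. AS2 against ApoE uses no WT array. Without a WT array its difference was unchanged, and only the joint adjustment over the 6 tests moved its adjusted p to 0.0519. The remaining such pair, Psmb8 with Psmb5, could not be tested without a Psmb5 row.

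The direct comparison of AS2 with AS1 plasma had the most calls, 25 of 45 members, 24 higher and 1 lower with AS2 plasma, where 22.1% of all rows were called, 11.5% higher and 10.6% lower. Of 17 genes of 19S subunits 13 were higher with AS2 plasma and 0 lower (median 0.349), and of 12 constitutive 20S genes 6 were higher and 0 lower (median 0.181). Of those 6, Psma2, Psma4, Psma7 and Psmb4 each lost their call without AS1 replicate 1 or 3, and in some other fits without 1 array (adjusted p up to 0.31). Of the 19S genes, Psmd3 lost its call in 8 of 18 such fits (adjusted p up to 0.215). Psmd14 lost its call without AS1 replicate 3 (adjusted p = 0.0599). The tissue-restricted Psma8, also called higher, lost its call in 11 of 18 (adjusted p up to 0.23). Psmd6 differed by 0.87 ± 0.07 (SE, limma adjusted p = 6.14e-08), Psmc5 by 0.78 (adjusted p = 2.03e-05), Psmd2 by 0.70 (adjusted p = 9.39e-07) and the chaperone gene Psmd10 by 0.66 (adjusted p = 6.07e-05). The 1 member called lower was Psmb9, by -0.29 (adjusted p = 0.0319), and that call was lost without AS1 replicate 1, AS1 replicate 3, AS2 replicate 1 or AS2 replicate 3 (adjusted p from 0.0504 to 0.126). All 13 neutrophil markers and all 5 megakaryocyte markers were called lower with AS2 than with AS1 plasma, and so were 6 of 9 mast cell, basophil and eosinophil, 4 of 5 B cell and 5 of 8 macrophage markers, with 0 higher in each list. The B cell markers Ebf1, Ms4a1 and Pax5 lay below the array median on every array, and Cd79a had group means of at most 4.175, also under it. The mast cell, basophil and eosinophil markers Fcer1a, Gata2, Il5ra and Ms4a2 lay below it on every array too. The summed neutrophil level was 11.66 to 12.46 against 14.29 to 14.57, and the megakaryocyte level 8.922 to 9.321 against 11.09 to 11.34. The part of these cells in the higher 19S values was not tested.

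Against WT plasma, AS1 and AS2 plasma differed from it on opposite sides in the 19S cap. With AS1 plasma 14 of 45 members were called, 0 higher and 14 lower, where 9.48% of all rows were called (4.84% higher and 4.64% lower), and 9 of 17 genes of 19S subunits were among them (median -0.259). Psmd6 differed by -0.61 (limma adjusted p = 2.05e-05), Psmd10 by -0.64 (adjusted p = 0.000484), Psmc5 by -0.59 (adjusted p = 0.00174) and Psma1 by -0.37 (adjusted p = 0.00185). None of the immunoproteasome genes was called: Psmb8, Psmb9 and Psmb10 differed by 0.07, -0.01 and 0.08. Without AS1 replicate 1, 9 members were called in place of 14. With AS2 plasma 13 of 45 members were called, 11 higher and 2 lower, where 17.8% of all rows were called (8.65% higher and 9.2% lower), and 9 of 17 genes of 19S subunits rose (median 0.181). Psmd2 was 0.44 higher (adjusted p = 6.06e-05), Psmd12 0.37 (adjusted p = 7.21e-05), Psmd14 0.30 (adjusted p = 0.0101), Psmd1 0.29 (adjusted p = 0.00118) and Psmc4 0.27 (adjusted p = 0.00287). The 2 members called lower were Psma6 (-0.34, adjusted p = 0.000802) and Psmb9 (-0.30, adjusted p = 0.0183), and the Psmb9 call was lost without WT replicate 1 or 3 (adjusted p = 0.0502 and 0.0897). Cell type markers moved with both comparisons. In AS1 against WT, 12 of 13 neutrophil markers were called higher and 0 lower, as were 5 of 9 mast cell, basophil and eosinophil markers, and of 5 megakaryocyte markers 4 were higher and 1 lower. In AS2 against WT, 5 of 8 macrophage markers were called lower and 0 higher, and 5 of 13 neutrophil markers lower and 1 higher. Their part in the 19S changes was not tested.

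**Figure D3:**
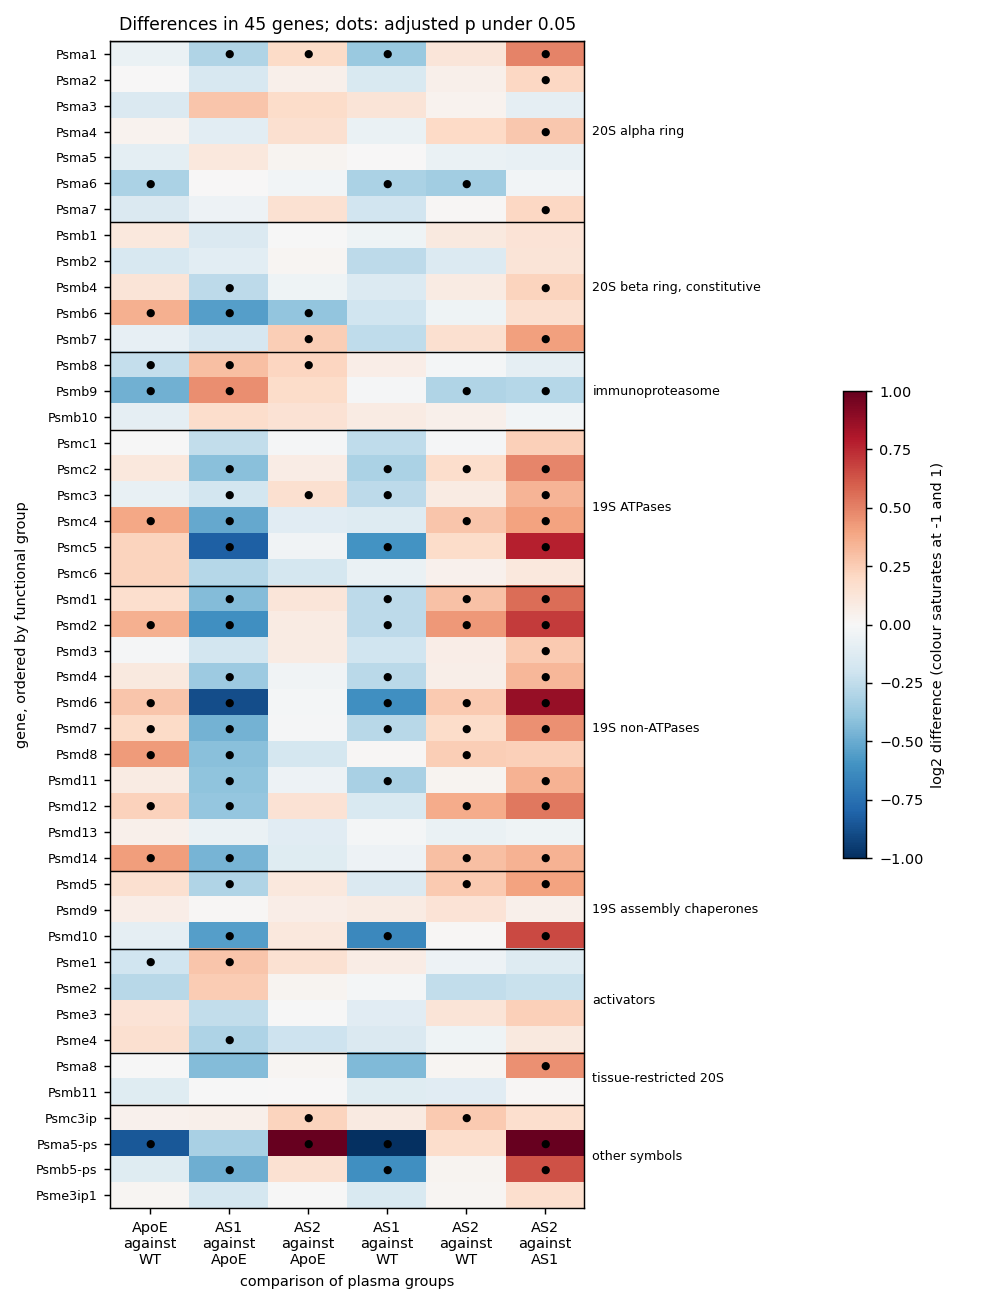
Log2 difference (colour, saturating at -1 and 1) of the 45 members (rows, by functional group) in the 6 comparisons of plasma groups (columns), with a dot where the adjusted p was under 0.05. The 17 rows of 19S subunits are all negative (blue) in AS1 against ApoE, with 13 dotted. In AS2 against AS1, 16 of 17 are positive (red), with 13 dotted, and Psmd13 is at -0.0436.

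The 19S genes varied together more than the core genes did, as a description over 18 arrays that share the 4 groups. The median correlation between pairs of genes was 0.59 among 17 genes of 19S subunits, 0.119 among 12 constitutive 20S genes and 0.539 among the 3 immunoproteasome genes. With the group means removed it was 0.107, 0.00665 and 0.327. The mean deviation of the 17 genes from their 18-array means was -0.361, -0.282 and -0.275 on the AS1 arrays and from 0.00582 (replicate 5) to 0.176 (replicate 2) on the ApoE arrays. For Psmb8, Psmb9 and Psmb10 it was from -0.333 (replicate 1) to 0.0278 (replicate 5) on the ApoE arrays and from 0.119 to 0.168 on the AS1 arrays. ApoE replicate 5 thus lay between the other ApoE arrays and the WT arrays in the 19S genes, and within the WT range of -0.0422 to 0.232 in the immunoproteasome genes.

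**Figure D4:**
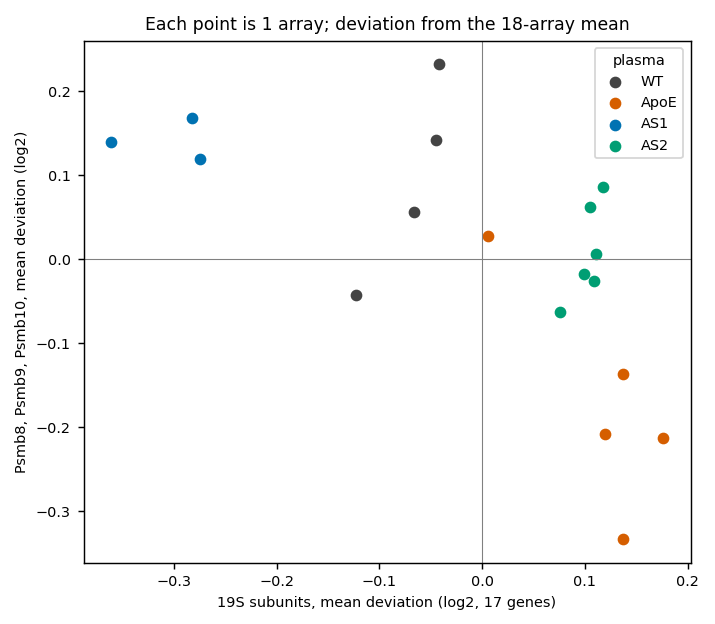
Mean deviation from the 18-array mean (log2) of the 17 genes of 19S subunits (x axis) and of Psmb8, Psmb9 and Psmb10 (y axis), 1 point per array, coloured by plasma group. The 3 AS1 points lie at -0.361 to -0.275 on the x axis, and 4 of 5 ApoE points lie at the lower right, with ApoE replicate 5 at 0.00582 and 0.0278.

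In total 32 members were called in at least 1 of the 6 comparisons and 13 in none. The 13 were Psma3, Psma5, Psmb1, Psmb2, Psmb10, Psmb11, Psmc1, Psmc6, Psmd9, Psmd13, Psme2, Psme3 and Psme3ip1. The Psma5 row had group means of 3.72 to 3.82, below the array median, while the row of its pseudogene Psma5-ps, a near-identical copy, was called in 4 comparisons. Psma5-ps was 7.58, 7.50, 7.08 and 7.41 with WT, 6.48, 6.59, 6.41, 7.01 and 6.26 with ApoE, and 5.70, 7.22 and 5.76 with AS1 plasma, a wide spread between AS1 arrays. With AS2 plasma its lowest, median and highest values were 7.19, 7.62 and 8.05. It differed by -0.84 in ApoE against WT (limma adjusted p = 0.0302), by 1.02 in AS2 against ApoE (adjusted p = 0.00449), by -1.17 in AS1 against WT (adjusted p = 0.0158) and by 1.34 in AS2 against AS1 (adjusted p = 0.00126). The ApoE against WT call was lost in 6 of 18 fits without 1 array (those without WT replicate 1, 2 or 4 or ApoE replicate 1, 3 or 5, adjusted p up to 0.0863), and that of AS1 against WT without AS1 replicate 1 or 3 (adjusted p = 0.11 and 0.107). Which of the copies these probes read is uncertain. Psmb5-ps, a pseudogene of the constitutive chymotrypsin-like subunit, had group means of 3.97 (AS1) to 4.61 (AS2), near the array median. It differed by -0.49 in AS1 against ApoE (adjusted p = 0.0292), a call lost in 6 of 18 fits (without AS1 replicate 1 or 3 or ApoE replicate 1, 3, 4 or 5, adjusted p up to 0.144). It was also called lower in AS1 against WT (adjusted p = 0.0159), a call lost without AS1 replicate 1 or 3 (adjusted p = 0.0838 and 0.0676). In AS2 against AS1 it was called higher, by 0.64, and kept that call in every fit without 1 array. Psmc3ip, a recombination protein gene and no proteasome subunit, had group means of 4.25 (WT) to 4.51 (AS2), near the array median. It was 0.22 higher in AS2 against ApoE (adjusted p = 0.0158), a call lost without ApoE replicates 2 and 5 (0.189, adjusted p = 0.0891). In AS2 against WT it was called 0.26 higher, and that call was kept in every fit without 1 array. Psme3ip1, whose product binds the Psme3 activator, was called in no comparison.

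Genes that build, regulate or supply the proteasome were also examined. Of 22 measured genes of assembly factors, partners and regulators, 8 rose and 0 fell with ApoE against WT plasma (median 0.0878), 1 rose and 8 fell with AS1 against ApoE (median -0.175) and 2 rose and 4 fell with AS2 against ApoE (median -0.0528). Nfe2l1, the transcription factor known to raise proteasome genes when proteasome activity is short, differed by 0.42 (limma adjusted p = 0.00108), -0.59 (adjusted p = 0.000134) and -0.35 (adjusted p = 0.00184) in these 3 comparisons. Usp14, a deubiquitinase bound to the 19S cap, differed by 0.37, -0.54 and 0.37, all called. Pomp, the maturation protein of the core, differed by -0.18 (not called), -0.38 and 0.34. The shuttle receptor genes Rad23b and Ubqln1 rose by 0.35 and 0.25 with ApoE plasma and differed by -0.27 and -0.43 with AS1 against ApoE plasma.

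Of 14 measured genes of ubiquitin supply and the unfoldase p97, 6 rose and 0 fell with ApoE against WT (median 0.244), 0 rose and 9 fell with AS1 against ApoE (median -0.239) and 0 rose and 5 fell with AS2 against ApoE (median -0.158). Vcp, which encodes p97, differed by 0.27 (limma adjusted p = 0.008), -0.45 (adjusted p = 0.000247) and -0.13 (adjusted p = 0.191). Sqstm1, an adaptor for ubiquitin-tagged cargo, differed by 0.64, -0.97 and -0.97, and Sel1l, of the ER degradation machinery, by 0.56, -0.71 and -0.24, all called. All 16 ER stress genes rose with ApoE plasma (median 1.04), 14 fell with AS1 against ApoE (median -0.938) and 15 fell with AS2 against ApoE (median -0.841), whereas the 19S median was -0.416 and -0.0156 in the last 2. The part of the ER stress genes in the 19S changes was not tested.

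On the side of the immunoproteasome, 13 of 23 measured interferon regulators and targets fell and 0 rose with ApoE against WT (median -0.318). With AS1 against ApoE 11 rose and 0 fell (median 0.211), and with AS2 against ApoE 13 rose and 4 fell (median 0.231). Irf1, an interferon-induced activator of Psmb9 and Tap1, differed by -0.71 (limma adjusted p = 8.05e-06), 0.68 (adjusted p = 5.26e-05) and 0.22 (adjusted p = 0.0668), and Irf7 differed by -1.59 in ApoE against WT and by 0.70 in AS2 against ApoE. Of 16 measured genes of class I antigen presentation, 5 rose and 6 fell with ApoE against WT (median -0.184), 3 rose and 6 fell with AS1 against ApoE (median 0.0663) and 2 rose and 4 fell with AS2 against ApoE (median 0.0178). Tap1, a subunit of the peptide transporter and the neighbour of both Psmb8 and Psmb9 on chromosome 17, differed by -0.49 (adjusted p = 0.00709), 0.53 (adjusted p = 0.00821) and 0.20 (adjusted p = 0.278). Tapbp, which couples the transporter to class I molecules, differed by -0.31, 0.39 and 0.49, all called. The folding factor genes Canx, Calr and Pdia3 went the other way, with 0.61, 0.34 and 0.45 in ApoE against WT and -0.53, -0.48 and -0.47 in AS1 against ApoE.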

How the data were processed

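Per the labels' protocols, cells received plasma after 4 days of culture and biotin-labelled cRNA was hybridised to Affymetrix arrays. The authors deposited log2 expression values from RMA, per the submitters' processing notes; no version or probe set definition was at hand. RMA gives all arrays the same distribution, which hides any change in RNA per cell. Arrays carry no read depth, and precision depends on how many there are and on the spread between them. Of 25428 rows, 24705 had 1 gene symbol and 723 were unnamed.

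From these values, limma 3.58.1 in R 4.3.3 fitted 1 model with 4 group means (14 residual degrees of freedom) to the 24705 rows, with two-sided tests and Benjamini-Hochberg adjustment over all of them at 0.05. The fit was tested on simulated data of 24705 rows for ApoE against WT: it called 90 of 120 rows shifted by 0.5 log2 units and 80 of 80 shifted by 1, and unchanged rows made up 6.08% of its calls. Only 200 simulated rows were shifted, far fewer than the 16.9% of rows called in the real comparison. These rates may therefore not hold for the real values. Pair differences used exact permutation over arrays. Promoters came from RefSeq (GRCm38.p6), whereas the sources used here name no build for the array's probe sets.

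Members and lists were chosen with earlier results of these data known. Genes were named by a rule: the catalytic, immunoproteasome and activator genes always, the 5 largest called changes per direction and comparison, the extremes of each functional group, and the members called nowhere; others are given by counts and range, and those named besides were chosen after their values were seen. For other lists, part of the 4 members of smallest p and some chosen after their values were seen are printed. Alternatives were the replicate number as a block, each array left out in turn, ApoE replicates 2 and 5 left out, array weights, a robust trended variance, only the compared groups, quantile normalization anew, arrays centred on their medians, unnamed rows included, low rows (mean under the 40th percentile) left out, and only 1 row for each gene.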

Additional observations from a re-analysis of the deposited data

Results flagged for a closer look

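Of 135 sets of 4 to 6 arrays (45 members in 3 groups), 11 held an array that stood apart from the rest of its group by Dixon's criterion, and chance flags about 1 set in 20. ApoE replicate 5 was high in Psmb9 (6.61, nearest 6.30). ApoE replicate 2 was low in Psmb4 (7.44, nearest 7.67) and Psmd9 (5.52, nearest 6.05) and high in Psme3ip1 (8.38, nearest 8.22), and ApoE replicate 3 was high in Psma4 (8.36, nearest 8.15). With WT plasma, replicate 2 was low in Psme1 (9.83, nearest 10.04) and replicate 1 was high in Psme3ip1 (8.37, nearest 8.18). With AS2 plasma, replicate 1 was low in Psma7 (8.61, nearest 8.79), replicate 3 in Psmd9 (5.80, nearest 6.08), replicate 4 in Psmb10 (8.06, nearest 8.30) and replicate 6 in Psmd11 (9.15, nearest 9.33). The AS1 group, with 3 arrays, was too small for this criterion.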

How the results depend on the processing

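Of 95 calls of members over the 6 comparisons, 61 were kept in all 28 settings in which they were tested: 17 of 23 in AS1 against ApoE, 17 of 25 in AS2 against AS1, 10 of 13 in AS2 against WT, 8 of 13 in ApoE against WT, 7 of 14 in AS1 against WT and 2 of 7 in AS2 against ApoE. No called value changed sign. Counts of called members stayed within 1.5 times of those reported, except 9 in AS1 against WT without AS1 replicate 1 (range without 1 array 9 to 16), 4 in AS2 against ApoE without AS2 replicate 2 (range 4 to 8) and 3 in AS2 against ApoE without ApoE replicates 2 and 5. The 19S count in AS2 against ApoE, 1 as reported, was 0 with a trended robust variance, 4 with array weights and 0 to 2 without 1 array. The 19S count without 1 array was 12 to 14 in AS1 against ApoE and AS2 against AS1, and 7 to 9 in ApoE against WT, AS1 against WT and AS2 against WT. Psmb9 minus Psmb6 kept its sign without 1 array, at -0.957 to -0.77 in ApoE against WT and 0.512 to 0.7 in AS2 against ApoE, but lost the threshold in each fit without a WT or ApoE array, and without ApoE replicates 2 and 5 they were -0.975 and 0.718 (adjusted p = 0.137 for each). Fewer arrays raise the smallest p the exact permutation test can give.

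Replicate numbers did not pair the arrays: over 22 same-numbered pairs the correlation of deviations ran from -0.207 to 0.133. In 5 of these 22 pairs the array of 1 group correlated best with its own number in the other. With the replicate number as a block, members called were 14, 22, 6, 11, 15 and 23 in ApoE against WT, AS1 against ApoE, AS2 against ApoE, AS1 against WT, AS2 against WT and AS2 against AS1, and the 19S count in AS2 against ApoE was 2. Psmb9 minus Psmb6 was -0.957 in ApoE against WT and 0.57 in AS2 against ApoE (exact paired permutation, adjusted p = 0.375 for each). With 4 and 5 same-numbered pairs, this paired test could not give a p under 0.05 whatever the values, so it decides nothing here.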
